A study of Mus musculus with 12 samples.

Results

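Microglia identity and activation genes were followed in the striatum of mice that lack TIF-IA in neurons carrying the D1 dopamine receptor. A list of 47 genes was used, and a gene was measured when the array held a probe set annotated with that gene alone. When several did, the one whose mean over all 12 arrays was highest stood for the gene. By this rule 45 of the 47 genes were measured, out of 12393 genes in all, and Lyn and Spp1 were not. The list was divided by role. It held 7 genes of microglial identity, 2 transcription factors and 5 receptors and adaptors of Trem2 and Fc receptor signalling. A further 7 were leukocyte surface and lysosomal genes, and 9 were genes of signalling and the cytoskeleton. The activated state had 10 genes, and scavenging and the phagocyte oxidase had 5.

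The mice were of the C57Bl/6 strain. Total RNA of each was hybridised to 1 Affymetrix array, and 12 arrays, 3 in each of 4 groups, were analysed. The groups were controls and TIF-IA mutants made with D1R-Cre at 9 weeks, and the same genotypes at 13 weeks; the labels say nothing more of the controls' alleles. The recombinase is driven by the D1 receptor gene, which in the striatum is active in a class of projection neurons, so the mutation is neuronal by design. The labels name medium spiny neurons as the cell type, yet all 7 identity genes of microglia, 8 of 8 astrocyte markers and 7 of 7 oligodendrocyte markers lay above the low-signal mark in every control array, so the samples held RNA of the other cells of the tissue. In bulk RNA of this kind, more cells of a type and more RNA of a gene in each cell cannot be told apart.

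Microglia are the resident macrophages of brain tissue. In the healthy brain they survey their surroundings with fine processes, depend on signals through the receptor Csf1r, and carry receptors such as Cx3cr1 and P2ry12 through which they sense neurons. Near damaged or dying cells they pass into an activated state in which the lipid sensor Trem2 and its adaptor Tyrobp signal through the kinase Syk, and genes for phagocytosis and lipid handling such as Apoe, Lpl, Cst7 and Clec7a are switched on, while homeostatic genes such as P2ry12 are often described as reduced.

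PU.1, the product of Spi1, is the factor that sets up the macrophage programme, and it binds purine-rich sites. The RefSeq promoter windows (build GRCm38.p6, 250 bases before to 50 after the start site, available for 37 of the 45 genes) were therefore searched on both strands for GAGGAAGT, and for the shorter GGAAGT that it contains. The longer motif was present in 4 of 37 members, or 10.8%, and in 3.69% of 27025 genes with a window. The shorter one was present in 16 of 37 members, or 43.2%, and in 26.5% of those genes. The windows of the 4 members with the longer motif are shown because they lie in genes that behaved differently at 13 weeks: the protease gene Ctss (chr3:95526536-95526835, plus strand), the tetraspanin gene Cd53 (chr3:106790100-106790399, minus strand), the exchange factor gene Vav1 (chr17:57278850-57279149, plus strand) and the phosphatase gene Inpp5d (chr1:87620062-87620361, plus strand). Those of P2ry12 (chr3:59262936-59263235, minus strand) and Cst7 (chr2:150570165-150570464, plus strand), which hold the shorter motif, are added as an identity gene that changed little and the gene with the largest difference. Each is written 5′ to 3′ along the gene, and capitals mark the motifs, which read ACTTCCTC where they lie on the opposite strand.
Ctss: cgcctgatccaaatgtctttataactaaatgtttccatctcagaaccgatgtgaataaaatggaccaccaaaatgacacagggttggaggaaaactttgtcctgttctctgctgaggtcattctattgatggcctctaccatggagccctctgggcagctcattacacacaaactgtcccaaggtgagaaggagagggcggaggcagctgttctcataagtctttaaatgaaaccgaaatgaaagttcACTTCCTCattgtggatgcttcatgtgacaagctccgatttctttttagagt
Cd53: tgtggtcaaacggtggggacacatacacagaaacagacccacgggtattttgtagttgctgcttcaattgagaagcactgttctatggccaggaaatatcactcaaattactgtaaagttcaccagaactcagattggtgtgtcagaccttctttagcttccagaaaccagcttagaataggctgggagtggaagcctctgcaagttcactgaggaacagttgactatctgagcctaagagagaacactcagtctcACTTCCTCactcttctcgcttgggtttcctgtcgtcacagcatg
Vav1: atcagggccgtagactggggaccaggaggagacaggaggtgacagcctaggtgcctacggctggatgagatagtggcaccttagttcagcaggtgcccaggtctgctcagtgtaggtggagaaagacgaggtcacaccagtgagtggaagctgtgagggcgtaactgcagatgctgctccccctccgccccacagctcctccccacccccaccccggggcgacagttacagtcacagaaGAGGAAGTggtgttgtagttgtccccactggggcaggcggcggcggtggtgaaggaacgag
Inpp5d: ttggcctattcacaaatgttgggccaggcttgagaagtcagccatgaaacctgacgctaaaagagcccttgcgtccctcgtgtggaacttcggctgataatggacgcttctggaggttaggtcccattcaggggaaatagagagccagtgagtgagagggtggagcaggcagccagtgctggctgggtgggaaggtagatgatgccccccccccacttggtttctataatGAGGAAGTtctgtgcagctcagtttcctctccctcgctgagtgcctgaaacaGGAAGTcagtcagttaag
P2ry12: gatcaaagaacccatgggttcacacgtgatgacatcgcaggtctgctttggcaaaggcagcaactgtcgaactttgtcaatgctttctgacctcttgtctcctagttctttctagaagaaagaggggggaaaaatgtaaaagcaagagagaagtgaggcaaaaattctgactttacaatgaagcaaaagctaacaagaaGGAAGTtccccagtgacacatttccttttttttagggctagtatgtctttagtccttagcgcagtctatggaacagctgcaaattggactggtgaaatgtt
Cst7: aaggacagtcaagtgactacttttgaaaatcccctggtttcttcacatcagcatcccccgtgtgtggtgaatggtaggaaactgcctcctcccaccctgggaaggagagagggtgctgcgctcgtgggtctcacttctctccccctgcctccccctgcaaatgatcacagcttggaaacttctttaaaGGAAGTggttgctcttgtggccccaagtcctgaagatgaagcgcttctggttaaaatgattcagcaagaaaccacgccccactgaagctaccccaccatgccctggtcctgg
Counted from the start site, the longer motif began at -2 in Ctss, 6 in Cd53, -11 in Vav1 and -20 in Inpp5d, and the shorter one at -51 in P2ry12 and -62 in Cst7. A match of letters describes the window and shows no binding. The 6 genes with these windows differed widely in their change at 13 weeks, from 0.48 log2 for Inpp5d to 8.29 for Cst7, as given below for each.

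All values are GCRMA log2 signals, so that a difference of 1 is a doubling, and they are compared between mice within a gene and not between genes. A gene was tested when it lay above the 40th percentile of the array, a signal of 3.51 to 3.81, on 3 arrays or more. This low-signal mark let 8256 genes into the test, 41 members among them, and left out Runx1, Syk, Msr1 and Cybb. Of the 41 members, 34 passed the mark on the 9 arrays outside the mutants at 13 weeks. The other 7 (Cd48, Rac2, Hcls1, Cst7, Clec7a, Lgals3 and Gpnmb) entered only through those mutants and so had to be high there. A gene passed at an adjusted p under 0.05 in limma, fitted to all 12 arrays, and errors of differences are its standard errors (SE) with n = 3 mice per group.

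Some features of the arrays bear on all results. By Xist and Eif2s3y, all 3 mutants at 13 weeks were female, as were mutant mouse 1 at 9 weeks and control mouse 3 at each age, and the other mice were male. Control mouse 3 at 13 weeks stood farthest from its group, with a median gap to its group mates of 0.49 log2 over all genes against 0.12 to 0.31 for the other arrays, among which mutant mouse 3 at 9 weeks had 0.27. At 13 weeks all 7 markers of medium spiny neurons fell and 7 of 8 astrocyte markers rose (Gfap by 5.89 ± 0.30, adjusted p = 3.69e-08), beside 1 of 7 oligodendrocyte markers. Of all genes tested 23.4% rose and 21.9% fell. The part of the marker shifts in the microglial values was not tested.

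The comparison of genotypes at 13 weeks asks how the list stands at the later age. In mutants 37 of the 41 members tested rose and 0 fell, where 23.4% of all genes tested rose and 21.9% fell. At an unadjusted p under 0.05 in limma the counts were 40 higher and 0 lower, beside 27.3% and 25.6% of all genes tested. Of the 34 members that passed the mark without the mutants at 13 weeks, 30 rose, beside 21.5% of the 8023 such genes. The 3 mutants lay above the 3 controls for 40 of the 41 members, where this held for 27.8% of all genes tested, and Inpp5d was the exception. This count of 40 and that at an unadjusted p include the 7 members that entered only through these mutants and had to be high there. Genes that entered in this way are also among all genes tested. Over all 45 genes the median difference was 2.84 log2, or 2.60 with the 7 genes that entered only through the older mutants at a lower bound, for which the controls are set to the low-signal mark. Over all genes measured it was -0.04. By role, with no bounds set, it was 2.60 for the identity genes, 3.08 for the receptors, 3.26 for the leukocyte genes, 1.60 for the signalling genes, 3.32 for the activated genes and 1.84 for the scavenging and oxidase genes. Among the 8023 genes over the mark outside the mutants at 13 weeks, ordered by this difference, 28 of the 34 members were in the first 500.

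**Figure D1:**
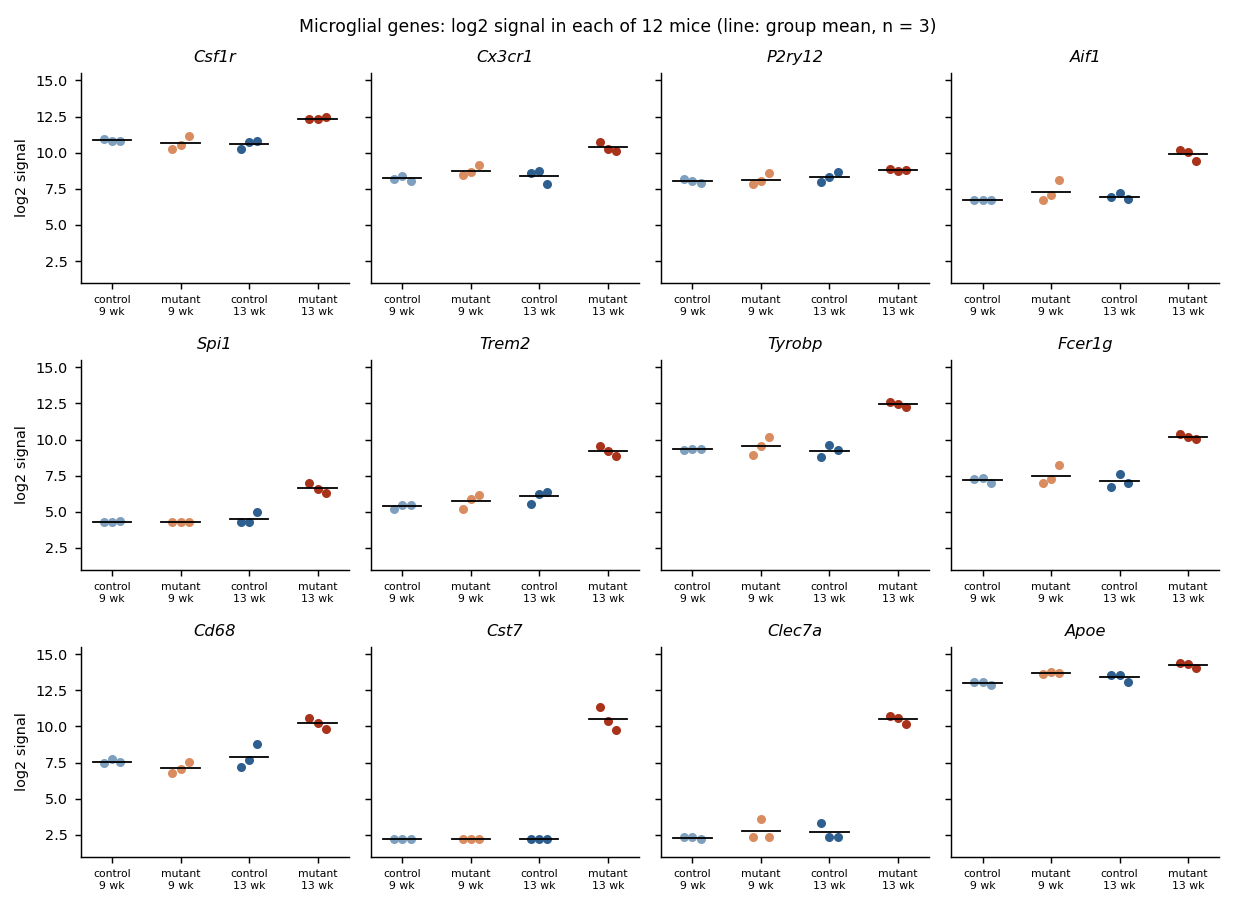
Log2 signal (vertical axis) of 12 microglial genes in each of the 12 mice, grouped on the horizontal axis by genotype and age, with a line at each group mean (n = 3). The 3 mutants at 13 weeks lie above all controls of their age in every panel, by 8.29 log2 on average for Cst7 and by 0.50 for P2ry12, and mutant mouse 3 at 9 weeks is the highest of its group for Aif1, at 8.11.

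Csf1r, the receptor for the growth factors that keep microglia alive, was at 10.95, 10.78 and 10.82 in controls and 10.25, 10.53 and 11.16 in mutants at 9 weeks. At 13 weeks its signal was 10.28, 10.76 and 10.79 in controls and 12.33, 12.31 and 12.44 in mutants. The mutants at 13 weeks thus lay closely together and above every other mouse, whereas the genotypes overlapped at 9 weeks. Csf1r rose 3.36-fold at 13 weeks (1.75 ± 0.22 log2, adjusted p = 6.32e-05), and its other probe sets differed by 1.78 and 1.62. At 9 weeks the difference was -0.20 ± 0.22 (adjusted p = 0.655).

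Cx3cr1, the receptor for the neuronal chemokine fractalkine, had 8.21, 8.40 and 8.07 in controls and 8.44, 8.68 and 9.15 in mutants at 9 weeks, then 8.58, 8.75 and 7.86 in controls and 10.77, 10.29 and 10.13 in mutants at 13 weeks. Each mutant lay above each control of its age at both ages, by a narrow margin at the earlier one. Cx3cr1 rose 4.0-fold at 13 weeks (2.00 ± 0.26 log2, adjusted p = 8.76e-05), while the difference of 0.53 ± 0.26 at 9 weeks did not pass (adjusted p = 0.272). Its second probe set, above the mark on all 12 arrays, differed by 0.89 ± 0.27 at 9 weeks and 1.56 ± 0.27 at 13 weeks.

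P2ry12, the ADP receptor that guides microglial processes and a hallmark of the surveying state, read 8.19, 8.07 and 7.91 in controls and 7.84, 8.01 and 8.57 in mutants at 9 weeks. At 13 weeks it read 7.96, 8.34 and 8.64 in controls and 8.90, 8.75 and 8.80 in mutants. All 3 mutants at 13 weeks were above the controls, but control mouse 3 came close. The difference of 0.50 ± 0.21 log2 did not pass (adjusted p = 0.0747), and it was the smallest of the 7 identity genes. Without control mouse 3 at 13 weeks it was 0.67 and passed (adjusted p = 0.021), and it also passed without mutant mouse 3 at 9 weeks.

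Aif1, which encodes the actin-binding protein IBA1 used to stain microglia, was at 6.73, 6.74 and 6.74 in controls and 6.72, 7.07 and 8.11 in mutants at 9 weeks, and at 6.94, 7.18 and 6.79 in controls and 10.17, 10.07 and 9.40 in mutants at 13 weeks. At 9 weeks mutant mouse 3 stood alone above the rest. Aif1 rose 7.52-fold at 13 weeks (2.91 ± 0.31 log2, adjusted p = 1.82e-05) and differed by 0.56 ± 0.31 at 9 weeks (adjusted p = 0.327).

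Ly86, which encodes MD-1, the partner of a Toll-like receptor homologue, was the identity gene with the largest rise. Controls had signals of 9.21, 9.16 and 8.84 and mutants 8.82, 9.34 and 10.04 at 9 weeks, and controls had 8.94, 9.51 and 8.51 and mutants 13.10, 12.80 and 12.88 at 13 weeks. The mutants at 13 weeks were far above all others, and mutant mouse 3 was the highest of the younger mice. Ly86 rose 15.3-fold (3.94 ± 0.30 log2, adjusted p = 1.18e-06). The pore-forming protein gene Mpeg1 (3.85) and Ctss (2.60), which encodes cathepsin S, rose as well, so that 6 of the 7 identity genes rose at 13 weeks.

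Of the transcription factors, Spi1 was at 4.27, 4.27 and 4.36 in controls and 4.31, 4.31 and 4.32 in mutants at 9 weeks, near the low end of the scale. At 13 weeks it was at 4.31, 4.27 and 5.02 in controls and 7.01, 6.61 and 6.31 in mutants. Control mouse 3 was the only mouse outside the older mutants that left the low level. Spi1 rose 4.32-fold (2.11 ± 0.22 log2, adjusted p = 1.38e-05). Runx1, which acts with PU.1 in the myeloid lineage, was below the low-signal mark in every array, at 2.51 to 2.80 at 9 weeks, 2.53, 2.53 and 3.61 in controls and 2.43, 2.47 and 2.49 in mutants at 13 weeks. Its 4 further probe sets, with means of 1.88 to 2.27, were lower still, and it was not tested.

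All 5 receptors and adaptors of Trem2 and Fc receptor signalling, activating and inhibitory, rose at 13 weeks. Trem2, a sensor of lipids and cell debris, had 5.17, 5.47 and 5.49 in controls and 5.23, 5.90 and 6.17 in mutants at 9 weeks, and 5.57, 6.26 and 6.38 in controls and 9.59, 9.20 and 8.88 in mutants at 13 weeks. The older mutants lay well apart, and at 9 weeks mutant mouse 1 fell within the controls. Trem2 rose 8.90-fold (3.15 ± 0.28 log2, adjusted p = 4.2e-06). Its second probe set, with a mean of 2.89, was below the mark on every array, and the mean of both differed by 1.5.

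Tyrobp encodes the adaptor of Trem2. Controls had signals of 9.27, 9.36 and 9.32 and mutants 8.92, 9.56 and 10.19 at 9 weeks, then 8.78, 9.65 and 9.30 in controls and 12.62, 12.46 and 12.27 in mutants. Tyrobp rose 9.23-fold (3.21 ± 0.29 log2, adjusted p = 4.76e-06). Fcer1g, the signalling chain shared by activating Fc receptors, was at 7.25, 7.33 and 6.98 in controls and 6.98, 7.27 and 8.21 in mutants at 9 weeks, and at 6.74, 7.63 and 7.01 in controls and 10.38, 10.21 and 10.02 in mutants at 13 weeks. It rose 8.44-fold (3.08 ± 0.30 log2, adjusted p = 8.99e-06). For both adaptors mutant mouse 3 was the highest at 9 weeks and the groups overlapped, with differences of 0.24 and 0.30.

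Fcgr3, an activating Fc receptor, rose by 2.51 ± 0.17 (adjusted p = 4.75e-07). Fcgr2b, the inhibitory Fc receptor, was at 7.32, 7.54 and 7.45 in controls and 7.0, 7.34 and 7.33 in mutants at 9 weeks, and at 7.33, 7.47 and 5.6 in controls and 8.47, 8.28 and 8.66 in mutants at 13 weeks. Control mouse 3 at 13 weeks was the lowest of all 12 mice. Fcgr2b rose by 1.67 ± 0.38 (adjusted p = 0.00398), and by 1.07 without that mouse. The size depended on the probe set, since 3 others with lower means differed by 4.17, 5.41 and 5.49, and the mean of all 4 by 4.18.

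All 7 leukocyte genes rose at 13 weeks, beside 23.4% of all genes tested, and Cd48 entered the test only through the mutants of that age. Cd52, a small surface glycoprotein of leukocytes, was at 3.33, 5.6 and 5.10 in controls and 4.23, 6.46 and 5.36 in mutants at 9 weeks, with the widest spread within groups, and at 4.48, 5.0 and 5.86 in controls and 11.41, 11.30 and 10.85 in mutants at 13 weeks. Its rise, 67.3-fold (6.07 ± 0.62 log2, adjusted p = 1.2e-05), was the largest of this role. Cd68, a glycoprotein of lysosomes that marks phagocytes, had the smallest. It was at 7.47, 7.74 and 7.51 in controls and 6.80, 7.07 and 7.54 in mutants at 9 weeks, and at 7.17, 7.71 and 8.76 in controls and 10.56, 10.26 and 9.81 in mutants at 13 weeks. Cd68 thus rose 5.03-fold (2.33 ± 0.35 log2, adjusted p = 0.000225), with control mouse 3 the highest of its group. Between these lay Ptprc (4.48), which encodes CD45, the surface receptor Cd48 (3.53, with no control array above the mark, so at least 8.61-fold), the endotoxin co-receptor Cd14 (3.26), the lysosomal gene Laptm5 (3.00) and Cd53 (2.60).

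In the signalling and cytoskeleton group 6 of the 8 genes tested rose at 13 weeks, beside 23.4% of all genes tested. Of these 6, Rac2 and Hcls1 entered the test only through the mutants of that age. Lcp1, which encodes the actin bundler L-plastin, was at 5.81, 6.15 and 6.37 in controls and 5.93, 6.32 and 6.93 in mutants at 9 weeks, and at 5.64, 6.28 and 6.46 in controls and 9.28, 9.19 and 8.85 in mutants at 13 weeks. The genotypes were intermingled at the earlier age and separate at the later one, when Lcp1 rose 7.89-fold (2.98 ± 0.28 log2, adjusted p = 6.25e-06). Coro1a, an actin regulator of leukocytes, was at 9.29, 9.27 and 8.97 in controls and 9.41, 9.41 and 9.5 in mutants at 9 weeks, and at 9.67, 9.5 and 9.89 in controls and 10.26, 10.05 and 9.92 in mutants at 13 weeks. By this probe set mutants lay above controls at both ages by small margins. The difference of 0.39 ± 0.16 at 13 weeks did not pass (adjusted p = 0.0617), and without control mouse 3 it was 0.49 and passed (adjusted p = 0.0172). A second Coro1a probe set, above the mark on all 12 arrays, differed by 0 at 9 weeks and 0.34 ± 0.14 at 13 weeks, and its groups overlapped at both ages.

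Rac2 (2.92), the GTPase of leukocytes, Plek (2.84), a kinase substrate, Hcls1 (2.40), Vav1 (1.60) and Arhgdib (0.69) rose too. No control array lay above the mark for Rac2 and Hcls1, so that their rises were at least 3.07-fold and 3.22-fold. Arhgdib did not pass without control mouse 2 at 13 weeks, with a term for sex, or in a fit of the groups at 13 weeks alone; all mutants of this age were female. Inpp5d, which encodes the SHIP-1 phosphatase that opposes Syk signals, differed by 0.48 ± 0.40 (adjusted p = 0.347) and its groups overlapped, but its second probe set differed by 1.70. Syk itself was below the mark on every array by the probe set used, and its 3 mutants at 13 weeks had 3.48, 3.57 and 2.79 against 2.66 to 2.83 in controls. A second Syk probe set had 4.04, 3.37 and 3.24 in those mutants, above the mark on 1 array, against 2.59, 2.65 and 2.68 in controls, and the remaining one was at 2.25 to 2.29 in the mutants.

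Of the 10 activated genes 9 rose at 13 weeks, beside 23.4% of all genes tested. Of these 9, Cst7, Clec7a, Lgals3 and Gpnmb entered the test only through the mutants at 13 weeks and so had to be high there. Cst7, which encodes cystatin F, an inhibitor of lysosomal proteases, lay between 2.18 and 2.23 in all 9 mice outside the older mutants, at the low end of the scale, and at 11.36, 10.41 and 9.74 in the mutants at 13 weeks. It rose by 8.29 ± 0.30 log2 (adjusted p = 1.95e-09), which is at least 124-fold when the controls are set to the low-signal mark. Clec7a, which encodes the pattern receptor Dectin-1, was at 2.34, 2.36 and 2.23 in controls and 2.37, 3.57 and 2.36 in mutants at 9 weeks, and at 3.31, 2.37 and 2.36 in controls and 10.72, 10.6 and 10.16 in mutants at 13 weeks. Its rise of 7.81 ± 0.34 (adjusted p = 8.07e-09) was at least 123-fold on the same basis.

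Apoe, the main apolipoprotein of the brain, which astrocytes make in quantity as well, was high everywhere. It was at 13.08, 13.11 and 12.88 in controls and 13.64, 13.74 and 13.70 in mutants at 9 weeks, and at 13.54, 13.58 and 13.11 in controls and 14.37, 14.33 and 14.07 in mutants at 13 weeks. Mutants lay above controls at both ages. Apoe rose by 0.67 ± 0.16 at 9 weeks (adjusted p = 0.0382) and by 0.85 ± 0.16 at 13 weeks (adjusted p = 0.0012). The call at 9 weeks was lost in 8 of the 12 fits that left out an array, among them each of the 6 arrays at 9 weeks and mutant mouse 1 or 2 at 13 weeks (highest adjusted p = 0.143).

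Lpl, the lipoprotein lipase, which neurons also express, was the activated gene with the smallest difference at 13 weeks. It was at 11.42, 11.50 and 11.50 in controls and 11.01, 11.11 and 10.15 in mutants at 9 weeks, and at 10.84, 10.88 and 9.72 in controls and 11.42, 11.16 and 11.25 in mutants at 13 weeks. By the probe set used, mutants were below controls at the first age and above at the second, and control mouse 3 was low at 13 weeks. Neither the difference of -0.72 ± 0.31 (adjusted p = 0.213) nor that of 0.80 ± 0.31 (adjusted p = 0.0548) passed. Without control mouse 3 at 13 weeks the later difference was 0.42, and without control mouse 1 or 2 of that group it passed at 0.98 and 1.00. A second Lpl probe set, above the mark on all 12 arrays, differed by -0.45 ± 0.33 at 9 weeks and 0.10 ± 0.33 at 13 weeks. By that probe set the groups overlapped at both ages, and control mouse 3 at 13 weeks was the highest array, at 9.55.

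Among the other activated genes Lgals3 (5.80), which encodes galectin-3, and Gpnmb (3.61), a glycoprotein of phagocytes, had no control array above the mark, so that their rises were at least 33.1-fold and 4.45-fold. Lyz2 (4.42), the lysozyme of macrophages, Cd9 (3.03), a tetraspanin, Csf1 (2.94), a growth factor of microglia, and the receptor kinase gene Axl (2.70), which takes part in the uptake of dead cells, rose from measurable levels.

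The scavenging and oxidase group split by detection. Cyba, the membrane partner of the oxidase's catalytic subunit, was at 5.98, 6.53 and 6.43 in controls and 6.04, 7.06 and 7.22 in mutants at 9 weeks, and at 6.23, 6.91 and 6.32 in controls and 9.82, 9.62 and 9.58 in mutants at 13 weeks. The older mutants stood apart and Cyba rose 9.11-fold (3.19 ± 0.30 log2, adjusted p = 5.57e-06). Slc11a1 (3.15), a metal transporter of the phagosome, and Ncf1 (1.84), the organiser subunit of the oxidase, rose with it.

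Cybb, the catalytic subunit, was below the mark on every array, with 2.02 to 2.07 in all 9 mice outside the older mutants and 2.16, 3.02 and 2.68 in the mutants at 13 weeks. These 3 lay above all controls, but at a level where the array gives no measured fold. Msr1, a scavenger receptor of macrophages, was likewise below the mark, with 2.58 to 2.64 in mutants and 2.63, 2.65 and 2.67 in controls at 13 weeks, and 2.63 to 2.93 in the younger mice. Its 3 further probe sets were at means of 2.24 to 2.53, and it was not tested.

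**Figure D2:**
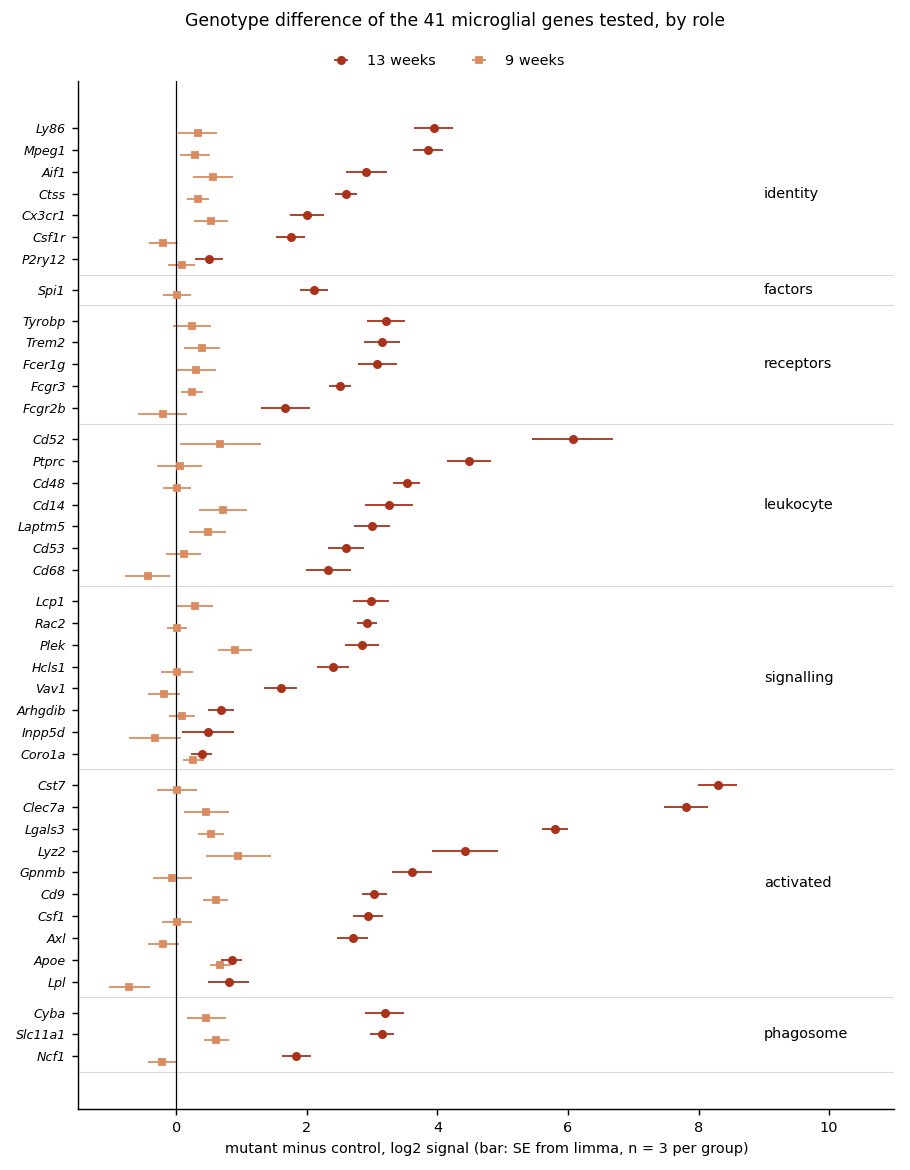
Difference of mutants from controls in log2 signal (horizontal axis, bars are SE from limma, n = 3 mice per group) for the 41 genes tested, ordered by role and size. At 13 weeks (circles) every gene lies to the right of 0, from 0.39 for Coro1a to 8.29 for Cst7, and at 9 weeks (squares) the genes lie from -0.72 for Lpl to 0.95 for Lyz2.

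The comparison at 9 weeks asks whether the list had moved at the earlier age. Apoe rose, 1 of 41 members, where 2.02% of all genes tested rose, and 0 members fell by limma's test, where 2.98% fell. At an unadjusted p under 0.05 there were 5 higher, Plek, Lgals3, Apoe, Cd9 and Slc11a1, and 1 lower, Lpl, of 41 members, beside 9.08% and 12.3% of all genes tested. The 3 mutants lay above the 3 controls for 9 of 41 members (Cx3cr1, Ctss, Laptm5, Plek, Coro1a, Lgals3, Apoe, Cd9 and Slc11a1), where this held for 15% of all genes tested. They lay below for 2 of 41, Lpl and Ncf1, where this held for 20.6%. These counts hold for the probe set used for each gene. Further probe sets of Laptm5, Plek, Coro1a, Lpl and Ncf1 overlapped at 9 weeks, and that of Cx3cr1 did not. The median difference of the 45 genes was 0.11 log2, beside 0.01 for all genes measured, with 0.33 for the identity genes and 0.23 for the activated genes.

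These small shifts were uneven among the 3 mutants at 9 weeks. Relative to the mean of the controls of that age, the median shift of the 45 genes was -0.07 in mouse 1, 0.11 in mouse 2 and 0.40 in mouse 3. Mouse 1 exceeded all 3 controls in 12 of 45 members, mouse 2 in 21 and mouse 3 in 29, that is 26.7%, 46.7% and 64.4%, beside 38.7%, 26% and 32.9% of all genes measured. In mouse 3 the receptors (0.79), the identity genes (0.61) and the leukocyte genes (0.58) were shifted most. Without this mouse 25 members were higher and 20 lower, with a median of 0.01, whereas with it 34 were higher and 10 lower. Of all 12393 genes measured, 6462 were higher and 5869 lower without it, with a median of 0.01. With it 6791 of them were higher and 5467 lower. Mouse 1 is the female of this group, and mouse 3 is the array that stood farthest from its group mates at 9 weeks; the part of either in these values was not tested.

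**Figure D3:**
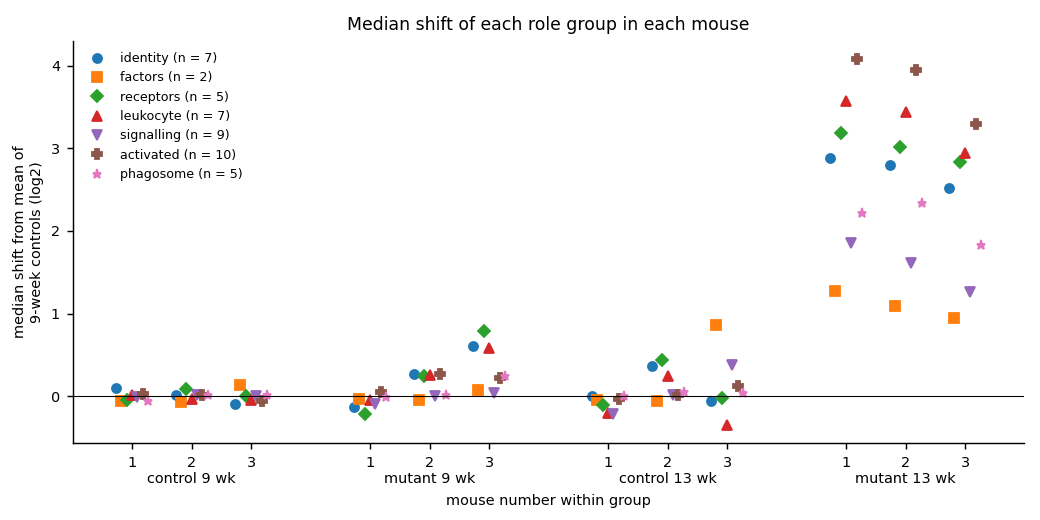
Median shift of each role group from the mean of the controls at 9 weeks (vertical axis, log2) in each of the 12 mice (horizontal axis, mouse number within its group). In the mutants at 13 weeks the activated genes are shifted by 4.08, 3.95 and 3.30 and the identity genes by 2.88, 2.80 and 2.52, with no bounds set, while mutant mouse 3 at 9 weeks has the largest shifts of its group in the receptors (0.79) and the identity genes (0.61).

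The identity genes, which include homeostatic ones such as P2ry12, moved in the same direction at 13 weeks as the activated genes. The roles differed in range and starting level. The 7 identity genes differed by 0.50 to 3.94 and were all above the low-signal mark in every control. The receptors Cx3cr1 (2.00), Csf1r (1.75) and P2ry12 (0.50) differed least among them. The 10 activated genes differed by 0.80 to 8.29, and 4 of them were below the mark in every control at both ages. With those 4 set to their bounds, the median of the activated genes was 2.98 instead of 3.32, beside 2.60 for the identity genes. Measured from the controls at 9 weeks, with the same bounds, the median shift of the activated genes was 3.61, 3.54 and 3.30 in the 3 mutants at 13 weeks, and that of the identity genes was 2.88, 2.80 and 2.52. Mouse 3 was the lowest in both. No identity gene fell at 13 weeks, and P2ry12, though higher in mutants, was the only one whose difference did not pass. Among the further genes described below, the median difference was 0.97 for the 15 of the resting state and 2.59 for the 22 of the activated state. The differences between roles were not tested, since the members were chosen with earlier results of these data known.

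The change of the genotype effect between ages was tested directly as an interaction. It was positive and passed for 36 of 41 members, where 12.1% of all genes tested passed in this direction, and for 29 of the 34 members that passed the mark without the mutants at 13 weeks, beside 10.1% of the 8023 such genes. Cst7 (8.28 ± 0.42, adjusted p = 1.22e-07), Clec7a (7.36) and Cd52 (5.40) had the largest changes, and for Cst7 and Clec7a no control array lay above the mark. Those that did not pass were P2ry12 (0.42 ± 0.30), Inpp5d (0.81), Coro1a (0.13), Arhgdib (0.61) and Apoe (0.18 ± 0.23, adjusted p = 0.632), which had nearly the same rise at both ages. The calls of Fcgr2b and Lpl were lost in 8 and 7 of the 12 fits that left out an array and with no filter on low values, and that of Cx3cr1 without mutant mouse 1 at 13 weeks.

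Between 9 and 13 weeks 38 of 41 members rose in mutants, where 16.1% of all genes tested rose. Of the 34 that passed the mark without the mutants at 13 weeks 31 rose, beside 14% of the 8023 such genes. In this comparison P2ry12 rose too (0.68 ± 0.21, adjusted p = 0.0298), so that 7 of 7 identity genes rose with age in mutants, and Inpp5d (0.98), Arhgdib (0.54) and Lpl (0.52) did not pass. The call of P2ry12 was lost in 5 of the 12 fits that left out an array, those without mutant mouse 1 or 2 at 9 weeks or any mutant at 13 weeks, and that of Fcgr2b in 6, those without any 1 mutant. Apoe lost its call without mutant mouse 1 at 9 weeks or mutant mouse 1 or 2 at 13 weeks, and Coro1a without mutant mouse 1 at 13 weeks. In controls 0 of 41 members passed limma's test with age, where 0.0848% of all genes tested rose, and at an unadjusted p under 0.05 there were 5 higher (Trem2, Coro1a, Apoe, Cd9 and Slc11a1) and 1 lower (Lpl), beside 4.92% and 12.4% of all genes tested. The median difference of the 45 genes with age was 2.63 log2 in mutants and 0.16 in controls. These comparisons share arrays with those of the genotypes and are not separate evidence.

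A further list held receptors of microglia and a few ligands for such receptors. Of 16 genes listed, 15 were measured and 10 tested. At 13 weeks 6 rose and 2 fell, beside 23.4% and 21.9% of all genes tested. Those that rose were the receptor or co-receptor genes Tlr2, Fcgr1, Ly96, Tlr7 and Csf2ra and the ligand gene Tgfb1. Of these, Tlr2, Ly96, Tlr7 and Tgfb1 entered the test only through the mutants at 13 weeks and so had to be high there. Those that fell were the ligand genes Il34 and Cx3cl1, which neurons express, and the ligand gene Cd200 and the receptor gene Il6ra did not pass. Il34, a neuronal ligand of Csf1r, was at 7.60, 7.65 and 6.97 in controls and 5.92, 5.99 and 5.96 in mutants at 9 weeks, and at 7.30, 7.73 and 7.75 in controls and 4.10, 4.72 and 5.17 in mutants at 13 weeks. Mutants lay below controls at both ages. Il34 fell by 1.45 log2 at 9 weeks (SE 0.26, adjusted p = 0.016) and by 2.93 at 13 weeks (SE 0.26, adjusted p = 4.51e-06). The call at 9 weeks was lost without control mouse 1 or 2 or mutant mouse 1 or 2 of that age (highest adjusted p = 0.072).

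Csf1, the other ligand of Csf1r and itself on the activated list, had the opposite course, with 5.38, 5.46 and 6.02 in controls and 8.62, 8.50 and 8.55 in mutants at 13 weeks, against 5.06 to 5.85 in all 6 younger mice. At 13 weeks the mutants' RNA thus held less Il34 and more Csf1 than that of controls. Cx3cl1, which encodes fractalkine, fell by 2.24 at 13 weeks (SE 0.29, adjusted p = 7.56e-05) and differed by -0.82 ± 0.29 at 9 weeks (adjusted p = 0.128). The markers of medium spiny neurons had a median difference of -0.57 at 9 weeks and -2.36 at 13 weeks, and their part in the falls of Il34 and Cx3cl1 was not tested.

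The Toll-like receptor gene Tlr2 (5.36 ± 0.25), the Fc receptor gene Fcgr1 (4.19), the endotoxin co-receptor gene Ly96 (2.03) and the cytokine gene Tgfb1 (2.80 ± 0.21) were the members of this set with the smallest p at 13 weeks and rose. No control array lay above the mark for Tlr2, Ly96 and Tgfb1, so that their rises were at least 18.1-fold, 1.88-fold and 4.31-fold. Tgfb1, whose signal maintains microglial identity, lay between 2.69 and 3.03 in all mice outside the older mutants. Its receptor genes Tgfbr2 (2.80) and Tgfbr1 (2.36) rose too.

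**Figure D4:**
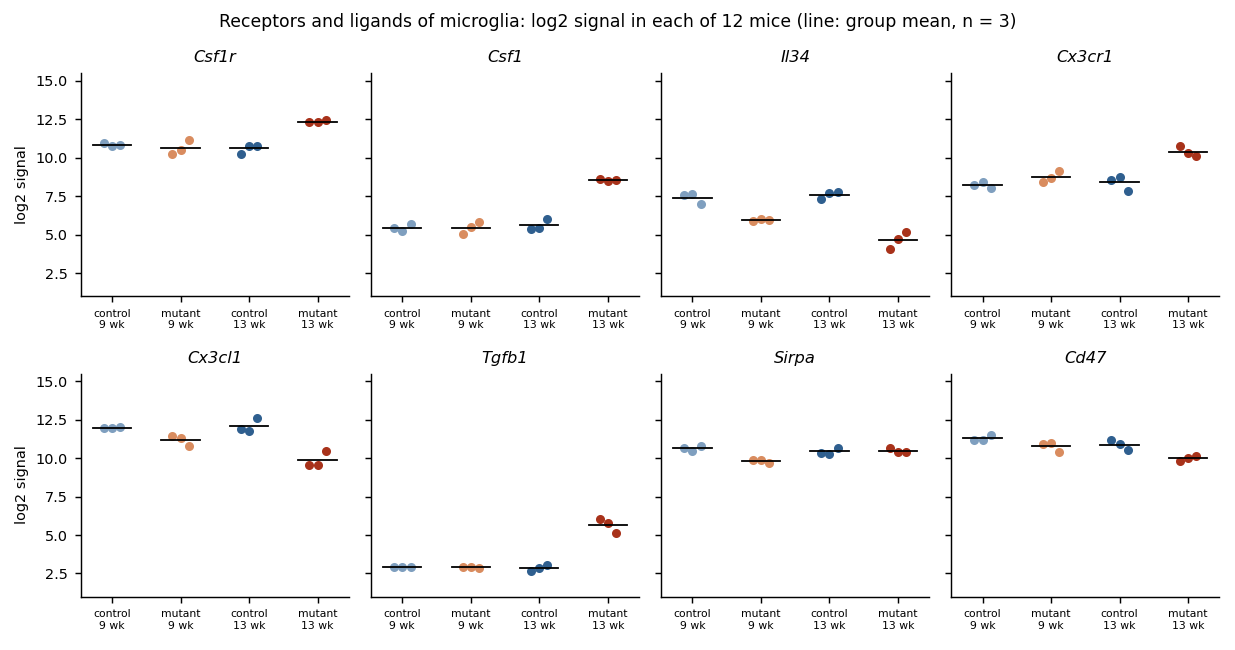
Log2 signal (vertical axis) of microglial receptors and of ligands in each of the 12 mice, by genotype and age (horizontal axis), with a line at each group mean (n = 3). At 13 weeks Csf1r and Csf1 are higher in mutants by 1.75 and 2.94 while Il34 and Cx3cl1 are lower, with differences of -2.93 and -2.24.

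Among 20 partners of Trem2 and Csf1r signalling, 17 were measured and 12 tested. At 13 weeks 5 rose and 1 fell, beside 23.4% and 21.9% of all genes tested. The adaptor genes Blnk (3.32), Lcp2 (2.31) and Fyb (2.86) and the phosphatase gene Ptpn6 (3.32) were those with the smallest p. Lcp2 and Fyb entered the test only through the mutants at 13 weeks and so had to be high there. No control array lay above the mark for Lcp2 and Fyb, so that their rises were at least 2.22-fold and 4.66-fold. Cd47, a surface signal that restrains phagocytosis, was the one that fell, by 0.89 at 13 weeks (SE 0.22, adjusted p = 0.00552). Its receptor Sirpa fell at 9 weeks by 0.83 (SE 0.16, adjusted p = 0.0182) and differed by 0.03 at 13 weeks. The call of Sirpa at 9 weeks was lost without control mouse 1 or 3 or mutant mouse 1 or 2 of that age (highest adjusted p = 0.0826), and its 2 other probe sets differed by -0.27 and -0.45 at 9 weeks.

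Further genes of the resting state, 14 tested of 19 listed, were mixed at 13 weeks. Of these 9 rose and 1 fell, beside 23.4% and 21.9% of all genes tested. Fcrls (3.28), Tgfbr2, Olfml3 (2.67) and the integrin gene Itgam (2.58) rose and had the smallest p. The transcription factor gene Mef2a was the one that fell, by 0.46 (SE 0.15, adjusted p = 0.0231). Tmem119, a surface marker of microglia, differed by 0.98 ± 0.40 (adjusted p = 0.0636) and the factor gene Sall1 by 0.63 ± 0.25 (adjusted p = 0.0567), so that, like P2ry12, they did not pass. The median over the 15 measured was 0.97 log2.

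Further genes of the activated state, 21 tested of 26 listed, rose in 17 at 13 weeks, beside 23.4% of all genes tested. Of these 17, Itgax, Ccl3, Ch25h, Capg and Gpr84 entered the test only through the mutants at 13 weeks and so had to be high there. The median over the 22 measured was 2.59. The chemokine gene Ccl6 (5.67), the integrin gene Itgax (4.98), the actin capper gene Capg (4.81) and B2m (3.33), the light chain of MHC class I, had the smallest p. No control array lay above the mark for Itgax and Capg, so that their rises were at least 11.4-fold and 16.6-fold. Complement genes rose in 6 of 6 tested, with Serping1 (6.09), C3ar1 (3.14), Itgb2 (3.94) and C1qb (2.52) first, of which C3ar1 had no control array above the mark and rose at least 3.29-fold. Of the remaining oxidase genes 2 of 3 tested rose, the regulator gene Ncf4 (2.33) and the proton channel gene Hvcn1 (1.64). Ncf4 had no control array above the mark and rose at least 1.93-fold. C3ar1 and Ncf4 also entered the test only through the mutants at 13 weeks.

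Many members are shared by other leukocytes, so markers of those cells were read on the same arrays. Of 10 markers of border macrophages, the macrophages of meninges and vessels, 1 was tested, Stab1, and it differed by 0.30 ± 0.23 at 13 weeks (adjusted p = 0.301); Mrc1 (2.78 in controls and 3.03 in mutants) and Cd163 (3.07 and 2.75) were below the mark. The summed linear signal of the 10 ranged from 69.8 to 76.0 in controls and 68.2 to 95.8 in mutants at 13 weeks. Of 7 monocyte markers measured S100a4 was tested and rose (5.19 ± 0.46, adjusted p = 4.05e-06), while Ccr2, the chemokine receptor that defines recruited monocytes, was at 2.70 in controls and 2.60 in mutants, below the mark. The sum of the 7 ranged from 64.4 to 133 in controls and 1710 to 2120 in mutants, and S100a4 was the only one above the mark. Plac8, another of the 7, was at 2.25, 2.26 and 2.30 in controls and 3.49, 3.61 and 3.30 in mutants at 13 weeks, so that the mutants lay above the controls, below the mark.

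Of 10 neutrophil markers Csf3r was tested and rose (3.01 ± 0.23, adjusted p = 9.57e-07), while S100a8 (2.42 and 2.35) and S100a9 (2.57 and 2.55) were below the mark in both genotypes. The sum of the 10 was 51.2 to 59.2 in controls and 143 to 170 in mutants. As in the monocyte list, a single gene, here Csf3r, was the only one above the mark. None of 10 T cell, 6 B cell or 5 NK cell markers was tested, because each was at the low end of the scale. Their sums at 13 weeks were 53.0 to 54.6, 30.3 to 33.4 and 23.3 to 23.9 in controls and 50.7 to 51.0, 31.3 to 33.6 and 22.5 to 23.2 in mutants. S100a4, Csf3r and Plac8 were thus higher in mutants while Ccr2, S100a8 and S100a9 were below the mark in both genotypes, and the part of other leukocytes in the microglial values was not tested.

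**Figure D5:**
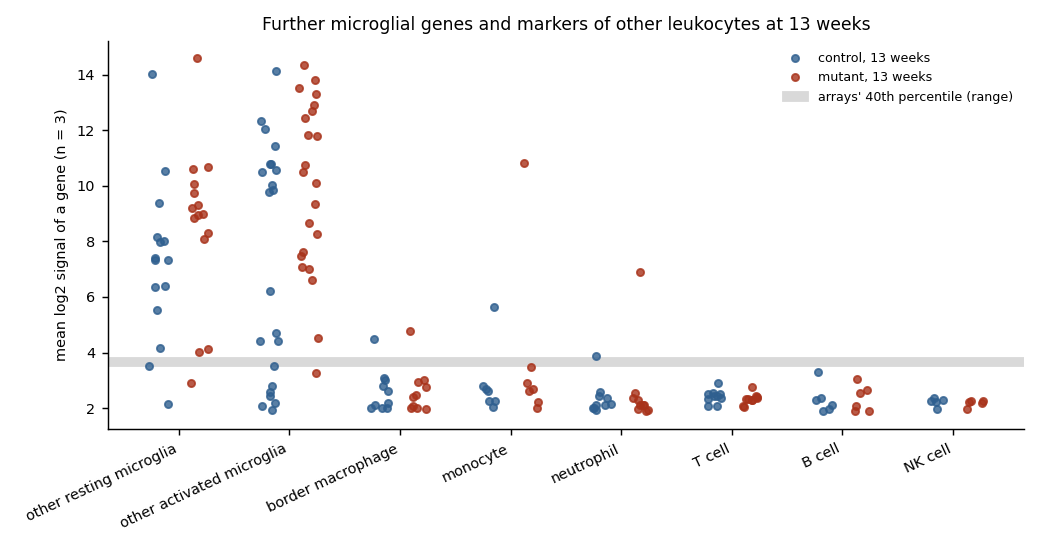
Mean log2 signal (vertical axis, n = 3 mice) of each gene measured in further microglial lists and in marker lists of other leukocytes (horizontal axis), in controls and mutants at 13 weeks; the grey band is the range of the arrays' 40th percentile, 3.51 to 3.81. Among monocyte and neutrophil markers S100a4 (10.82) and Csf3r (6.88) stand above the band in mutants, and all T, B and NK cell markers lie below it.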

How the data were processed

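Total RNA of 12 mice, 3 per group and labelled as biological replicates, was hybridised to 12 arrays. Per the labels, the authors processed the signals with GCRMA (version not given in the sources used here), and the table they deposited holds log2 values from 1.09 to 15.48 over 22690 probe sets, with array medians of 5.29 to 5.52. By GEO's platform annotation 20380 probe sets had 1 gene symbol, 691 had more and 1555 had none; 64 control probe sets were left out. The low end of the GCRMA scale is compressed, so a fold from that level depends on the background correction.

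limma 3.58.1 under R 4.3.3 (functions lmFit and eBayes) fitted all genes tested over all 12 arrays, with a coefficient for each group and 8 residual degrees of freedom, and two-sided p-values adjusted by Benjamini-Hochberg over 8256 genes. The number of arrays limits the precision. The script was tested on simulated data. Replicate numbers did not pair the mice: deviations of same-numbered mice correlated by -0.07 to 0.18, so no block was used. The members, roles and lists were chosen with earlier results of these data known. Values in every array are given for 13 preselected members and for those with the largest and smallest difference of each role; of other lists up to 4 genes with the smallest p at 13 weeks are named, and any further gene was picked with its values in view. Alternatives were other scalings, filters, probe set rules, variance models, array weights, a term for sex, a replicate block and each array left out.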

Additional observations from a re-analysis of the deposited data

Results flagged for a closer look

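The effect of genotype differed between 9 and 13 weeks in 36 of the 41 members tested, all toward higher values at 13 weeks. The test was the interaction term of limma at an adjusted p under 0.05. Of all genes tested 12.1% passed in this direction. Of the 34 members that passed the mark without the mutants at 13 weeks 29 passed, beside 10.1% of the 8023 such genes. The values below are the difference at 13 weeks minus that at 9 weeks, in log2 units. Among the identity genes they were 3.61 for Ly86, 3.57 for Mpeg1, 2.35 for Aif1, 2.27 for Ctss, 1.95 for Csf1r and 1.47 for Cx3cr1, and among the factors 2.10 for Spi1. The receptors and adaptors had 2.97 for Tyrobp, 2.78 for Fcer1g, 2.76 for Trem2, 2.27 for Fcgr3 and 1.88 for Fcgr2b. The leukocyte genes had 5.40 for Cd52, 4.44 for Ptprc, 3.52 for Cd48, 2.77 for Cd68, 2.56 for Cd14, 2.53 for Laptm5 and 2.49 for Cd53. Of the signalling genes, Rac2 had 2.91, Lcp1 2.70, Hcls1 2.39, Plek 1.94 and Vav1 1.78. The activated genes had 8.28 for Cst7, 7.36 for Clec7a, 5.27 for Lgals3, 3.67 for Gpnmb, 3.47 for Lyz2, 2.92 for Csf1, 2.89 for Axl, 2.43 for Cd9 and 1.51 for Lpl. The oxidase and phagosome genes had 2.73 for Cyba, 2.55 for Slc11a1 and 2.07 for Ncf1. For Cd48, Rac2, Hcls1, Cst7, Clec7a, Lgals3 and Gpnmb no control array was above the low-signal mark, so these values depend on signals near background. For Lpl the difference changed sign, from -0.72 at 9 weeks to 0.80 at 13 weeks, while neither passed on its own. By its second probe set these differences were -0.45 and 0.10. The calls of Fcgr2b and Lpl were lost in 8 and 7 of the 12 fits that left out an array, and that of Cx3cr1 in 1.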

How the results depend on the processing

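The counts of members past the test at 13 weeks, in the interaction and with age in mutants stayed within 1.5 times those reported in every alternative run. With 1 array left out they ranged from 31 to 39, 27 to 37 and 28 to 40, and 35 members were tested without a mutant at 13 weeks. At 9 weeks the count of 1 became 3 in a fit of the compared groups alone, which called 12.7% of all genes, and 20, of which 16 were higher, with array weights, which called 46.4%. It lay between 0 and 5 with 1 array left out, with 5 without control mouse 3 at 13 weeks, where 16.6% of all genes were called. With age in controls it was 9 with array weights, beside 23.3% of all genes. The weights, 0.0587 to 23.7, came from an estimate that stopped before it converged. With a replicate block the counts were 1 at 9 weeks, 38 at 13 weeks, 36 in the interaction, 38 with age in mutants and 0 in controls. Between 9 and 13 weeks in mutants, median centring lost P2ry12 and Apoe, a term for sex lost P2ry12 and no filter lost Fcgr2b.

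The median of the oxidase and phagosome genes was 1.68 at 13 weeks, 1.93 in the interaction and 2.20 with age in mutants after median centring, and 2.20, 2.37 and 2.62 with the mean of all probe sets, which gave 2.95 for the activated genes in the interaction. Small differences changed sign. At 9 weeks these were Spi1 (-0.03 after quantile normalization, -0.01 after median centring, 0 to 0.04 with 1 array left out), Cst7 (-0.01 after median centring, 0 to 0.02), P2ry12 (-0.05 with array weights, -0.13 to 0.23), Fcgr2b (0.27 with the mean of probe sets), Tgfb1 (0.01 with array weights, -0.04 to 0.02), Tyrobp (-0.08 to 0.56) and Fcer1g (-0.06 to 0.55). At 13 weeks it was Sirpa (-0.13 after median centring, -0.17 with the mean of probe sets, -0.12 with a term for sex, -0.05 to 0.15). The cause was not tested. Signals below the low-signal mark limit what can be said of Runx1, Syk, Msr1 and Cybb.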

Other observations

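Markers of other cells of the tissue that belong to no comparison above were read at 13 weeks, when 23.4% of all genes tested rose. Of 8 endothelial markers 4 were tested and 3 rose in mutants, Vwf (2.27 ± 0.28 log2, adjusted p = 5.84e-05 by limma), Flt1 (1.33) and Cldn5 (0.66). Of 7 oligodendrocyte markers Cldn11 rose (0.97 ± 0.22, adjusted p = 0.00336). Of 4 choroid plexus markers Ttr was tested and rose (2.26 ± 0.77, adjusted p = 0.031), unevenly, with 5.26, 3.35 and 7.32 in the 3 mutants and no control of that age above the low-signal mark. Only 2 of these mutants and 1 control at 9 weeks lay above the mark for Ttr.

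A further receptor, picked with its values in view, was Tlr4, the endotoxin receptor that works with Cd14 and Ly96. It lay between 2.52 and 2.77 in all 9 mice outside the mutants at 13 weeks and was at 4.88, 4.92 and 3.61 there. Because fewer than 3 arrays were above the low-signal mark, it was not tested.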
